A study of Mus musculus with 12 samples.

Results

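Cells carry proteins in the cytosol that bind RNA or DNA found there and start an interferon response. Their transcripts were followed here in primary mouse oligodendrocyte precursor cells (OPCs), the proliferating glia that give rise to myelinating oligodendrocytes. The genes are *Ddx58*, *Ifih1*, *Dhx58*, *Mavs*, *Mb21d1*, *Tmem173*, *Aim2*, *Ifi204*, *Eif2ak2* and *Adar*. They are taken by symbol, with no threshold on their values, as a set put together when earlier results of these data were known, and all 10 were found among the 45563 symbols used.

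RNA was sequenced from cortical OPCs of pups, isolated with anti-PDGFRα beads and grown for 3 days in medium with PDGF-AA and FGF2. The labels give strain C57BL/6 and an age of 2 to 5 days, and the methods an age of 3 to 5 days. Cells of WT pups and of germline TNFR2-/- pups, labelled TNFR2 KO, were left non-stimulated (NS, PBS vehicle by the study's methods) or were stimulated (St) for 3 h with TNF, IFNγ and IL1β at 25 ng/mL each. All 12 libraries thus share the bead selection and the growth factors. The mutation is by design in the germline rather than limited to OPCs. In the methods, C57BL/6J is named for the WT mice only, and the TNFR2-/- mice are listed under a stock number. The part of strain background in the genotype differences was not tested. The 4 groups hold 3 libraries each, numbered in the labels as 2, 3 and 4 for WT and 2, 4 and 5 for TNFR2-/-. The labels do not say that this number is a culture. It is read so below because NS and St libraries of the same number deviated together within a genotype.

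Library totals ranged from 26886878 to 30335265 read pairs. *Tnfrsf1b*, the gene of TNFR2, had 12 to 24 read pairs in the WT NS libraries, against 213 to 346 in those labelled TNFR2-/-. After stimulation WT libraries held 61 to 145 of them, and those labelled TNFR2-/- 282 to 356. The targeted gene was therefore higher where the label says it is ablated, so below TNFR2-/- means the libraries labelled so. Totals per gene do not show which exons the reads cover. Each of 10 OPC markers had at least 1041 read pairs in every library, and their summed level was 1400 to 2035 read pairs per kb of annotated exon and per 1000000 read pairs of the library (the length-scaled level), against 0.582 to 1.17 for 13 of 15 microglia markers that could be summed. Of those 13, 7 never exceeded 3 read pairs in a library. In stimulated cells the summed level of 6 neuron markers was 219 to 278, against 33.9 to 49.9 in NS cells, and *Tubb3* was the single marker of that list that rose while *Snap25* fell. The summed OPC marker level was 1821 to 2012 before and 1417 to 1581 after stimulation in WT, and 1773 to 2035 and 1400 to 1549 in TNFR2-/-. Among OPC markers *Olig2* fell in both genotypes, *Cspg4* fell and *Sox10* rose in WT, and *Pdgfra* and *Lhfpl3* were lower in TNFR2-/- St than in WT St. Of the endothelial markers *Ly6c1* rose in both genotypes and *Cldn5* in TNFR2-/-, and of the mural and fibroblast markers *Lum* rose in both and *Pdgfrb* fell in TNFR2-/-. The part of any of these markers in the results was not tested.

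As background, RIG-I (*Ddx58*) and MDA5 (*Ifih1*) are helicases that bind viral double-stranded RNA and signal through the mitochondrial adaptor MAVS, and LGP2 (*Dhx58*) is a related helicase without signaling domains that tunes both. Cytosolic DNA is bound by cGAS (*Mb21d1*), which makes a cyclic dinucleotide that activates STING (*Tmem173*), and by the HIN domain proteins AIM2, which assembles an inflammasome, and IFI204. PKR (*Eif2ak2*) responds to double-stranded RNA by phosphorylating eIF2α, and ADAR1 (*Adar*) edits adenosine to inosine in such RNA and thereby keeps the cell's own transcripts from being sensed. Several of these genes are known interferon-stimulated genes.

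Promoters are shown because several of these genes moved together with stimulation and others did not. RefSeq sequences on GRCm38.p6, from 250 bases before to 50 bases after the start of transcription, were found for 7 of the 10 genes. *Dhx58*, *Ifi204* and *Tmem173* had no entry. The 3 promoters below that hold the core of an interferon-stimulated response element (ISRE, GAAA and GAAA separated by any 2 bases, searched on both strands) are followed by that of *Mavs*, which holds none. Capitals mark matches to the ISRE core or to a gamma-activated site (GAS, TTC and GAA separated by any 3 bases, on both strands).
Ddx58 (chr4:40239776-40240075, minus strand): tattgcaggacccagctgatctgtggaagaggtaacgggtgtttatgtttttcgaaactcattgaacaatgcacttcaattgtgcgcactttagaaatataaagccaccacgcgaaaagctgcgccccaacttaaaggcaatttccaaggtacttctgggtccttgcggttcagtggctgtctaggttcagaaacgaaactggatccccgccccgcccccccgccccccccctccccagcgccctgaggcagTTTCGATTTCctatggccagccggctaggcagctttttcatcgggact
Ifih1 (chr2:62646206-62646505, minus strand): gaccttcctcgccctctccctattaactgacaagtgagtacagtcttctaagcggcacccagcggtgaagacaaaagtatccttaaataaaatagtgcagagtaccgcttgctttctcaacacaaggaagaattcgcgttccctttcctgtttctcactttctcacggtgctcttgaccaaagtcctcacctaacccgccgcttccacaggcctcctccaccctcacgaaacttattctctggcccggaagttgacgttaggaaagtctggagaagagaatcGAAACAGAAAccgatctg
Eif2ak2 (chr17:78882523-78882822, minus strand): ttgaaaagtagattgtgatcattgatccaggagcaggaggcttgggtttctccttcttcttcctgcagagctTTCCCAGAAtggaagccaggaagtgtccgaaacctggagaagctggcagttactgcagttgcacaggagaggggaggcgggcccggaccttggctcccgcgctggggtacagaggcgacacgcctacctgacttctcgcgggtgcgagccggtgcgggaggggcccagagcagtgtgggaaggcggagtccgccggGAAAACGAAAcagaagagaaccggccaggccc
Mavs (chr2:131233813-131234112, plus strand): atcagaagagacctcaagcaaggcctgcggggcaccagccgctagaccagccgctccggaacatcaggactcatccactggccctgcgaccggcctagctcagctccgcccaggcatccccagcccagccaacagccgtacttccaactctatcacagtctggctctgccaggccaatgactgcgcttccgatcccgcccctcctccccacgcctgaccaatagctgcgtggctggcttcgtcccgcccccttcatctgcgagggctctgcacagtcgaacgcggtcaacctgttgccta

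The ISRE core was found in 3.44% of all 32851 RefSeq promoters of this length, the GAS in 8.3% and a κB consensus, searched by name, in 8.46%. In *Ddx58* the ISRE core lay 2 to 11 bases past the first transcribed base, and the other positions are distances from that base too. The ISRE core was at bases 32 to 41 in *Ifih1* and at bases 18 to 27 in *Eif2ak2*. The GAS of *Eif2ak2* lay upstream, at bases -178 to -170. None of the 3 motifs was found in the promoters of *Mavs*, *Mb21d1* or *Aim2*, and of 3 windows for *Adar* 1 held a GAS, at bases 22 to 30. These matches describe letters in a window and were not tested for binding.

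In non-stimulated WT cells the ADAR1 gene and *Mavs* stood highest and *Aim2* lowest. On the length-scaled level, which unlike the deposited FPKM can be compared between genes, *Adar* had a level of 5.87 ± 0.626 (SD, n = 3) and *Mavs* one of 5.70 ± 0.539, with overlapping libraries. *Tmem173* (1.94 ± 0.319) and *Eif2ak2* (1.67 ± 0.250) came next and overlapped each other. *Ddx58* (1.28 ± 0.107) and *Mb21d1* (1.05 ± 0.0581) followed, each apart from its neighbors. *Dhx58* (0.623 ± 0.154) and *Ifi204* (0.562 ± 0.243) overlapped, *Ifih1* had a level of 0.179 ± 0.0675 and *Aim2* one of 0.0272 ± 0.0229.

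After stimulation the order was led by *Ddx58* in both genotypes, at 8.93 ± 0.746 in WT and 11.8 ± 2.50 in TNFR2-/- libraries. In WT St, *Ddx58* lay above *Adar* (7.45 ± 0.263) with no overlap, and *Tmem173* (5.72 ± 0.905), *Eif2ak2* (5.09 ± 0.679), *Mavs* (4.57 ± 0.341) and *Ifi204* (3.92 ± 1.28) followed, each overlapping the next. In TNFR2-/- St the levels of *Ddx58*, *Eif2ak2* (9.69 ± 2.75), *Ifi204* (8.50 ± 5.25) and *Adar* (8.34 ± 1.23) overlapped from each to the next. *Aim2* remained lowest in every group, at most 0.171 ± 0.0727.

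**Figure D1:**
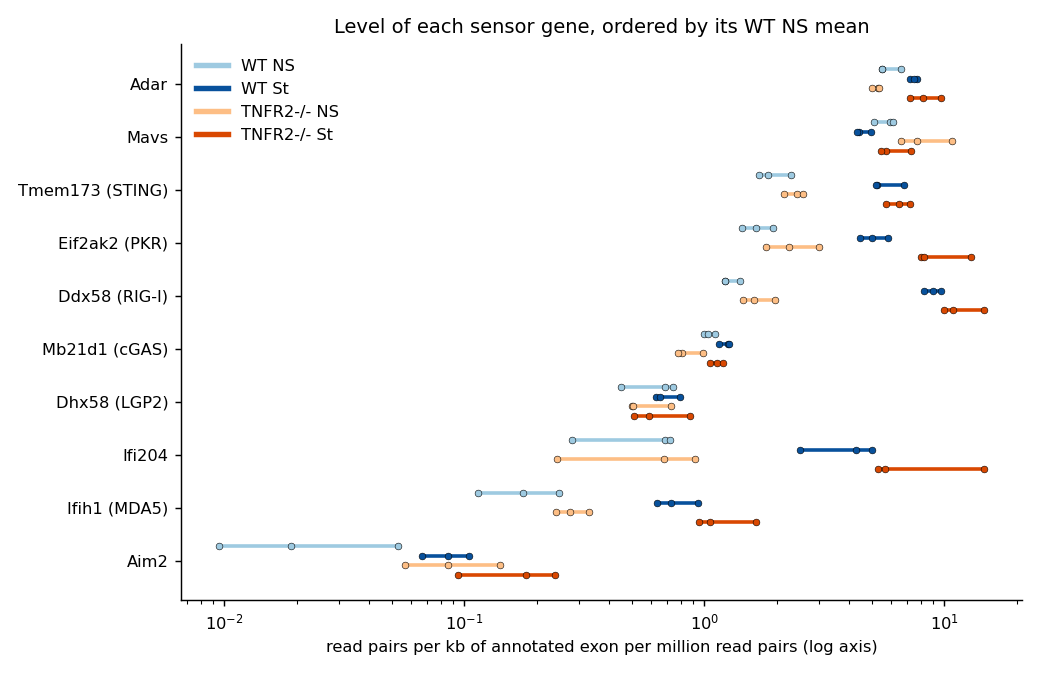
Level of each of the 10 genes in read pairs per kb of annotated exon and per 1000000 read pairs (log axis), with 1 point per library and a bar from the lowest to the highest of the 3 libraries of a group. *Ddx58*, *Ifi204*, *Eif2ak2*, *Tmem173* and *Ifih1* shift to the right with stimulation in both genotypes, *Mavs* shifts slightly to the left, and *Aim2* stays at the bottom of the scale.

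The first question was which sensors changed when OPCs met the 3 cytokines. In WT cells 5 of the 9 genes tested rose, namely *Ddx58*, *Ifi204*, *Eif2ak2*, *Tmem173* and *Ifih1*, by a fitted 2.52- to 6.83-fold. In TNFR2-/- cells the same 5 genes rose by a fitted 2.47- to 7.78-fold, and *Adar* rose by 1.57-fold. None fell in either genotype. A gene was called when its limma adjusted p was at most 0.05, its change at least 1.5-fold and its mean at least 1 FPKM. Of all 18081 genes tested, 4.58% were called up and 2.95% down in WT, and 5.41% up and 4.68% down in TNFR2-/- cells. Counting *Aim2*, 8 of the 10 genes had all WT St libraries above all WT NS libraries in FPKM, against 13.7% of genes tested, and 1 had them all below, against 24.0%. In TNFR2-/- cells these counts were 7, against 12.7%, and 0, against 24.7%. The median log2 change of the 9 genes was 1.33 in WT and 1.30 in TNFR2-/-, against -0.05 and -0.11 over all genes tested. Fold changes are on the scale of log2(FPKM + 0.5), which understates those of *Ifih1* and *Ifi204*, whose NS FPKM were near the pseudocount. In whole cultures more cells of a type and more RNA per cell cannot be told apart.

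*Ddx58* (ENSMUSG00000040296, chromosome 4, 40203773 to 40239828, minus strand) encodes RIG-I. The WT NS libraries of cultures 2, 3 and 4 had 297, 230 and 258 read pairs, and the WT St libraries 2053, 1733 and 1893. In TNFR2-/- cultures 2, 4 and 5 there were 341, 310 and 422 before and 2291, 2119 and 2964 after stimulation. Every St library was far above every NS library, and the change differed little between cultures, from 6.74- to 7.42-fold. The deposited values were 20.0 ± 1.67 and 139 ± 11.6 FPKM in WT, and 26.2 ± 4.17 and 184 ± 39.1 FPKM in TNFR2-/- (mean ± SD, n = 3). In log2, *Ddx58* rose by 2.77 ± 0.15 (SE) in WT (limma adjusted p = 4.2e-07) and by 2.78 ± 0.15 in TNFR2-/- (adjusted p = 3.7e-07).

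*Ifih1* (ENSMUSG00000026896, chromosome 2, 62595798 to 62646255, minus strand), the gene of MDA5, was among the scarcer transcripts. It had 61, 25 and 43 read pairs in WT NS and 232, 155 and 179 in WT St. The TNFR2-/- libraries held 59, 68 and 82 before and 232, 261 and 386 after stimulation. Groups did not overlap, and all 6 cultures moved upward. The log2 rise was 1.33 ± 0.20 in WT (limma adjusted p = 0.00096) and 1.51 ± 0.20 in TNFR2-/- (adjusted p = 0.00031). Because NS values were near the pseudocount (0.430 ± 0.162 FPKM in WT), these understate the change, and voom on the recovered read pairs gave 2.18 in WT and 2.19 in TNFR2-/- (adjusted p = 0.00049 and 9.2e-05, with ranges over the alternatives of 7.4e-05 to 0.0056 and 8.8e-05 to 0.0059).

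*Dhx58* (ENSMUSG00000017830, chromosome 11, 100694884 to 100704271, minus strand), the gene of LGP2, did not follow its relatives. It had 44, 65 and 67 read pairs in WT NS and 62, 64 and 78 in WT St, and 49, 50 and 72 in TNFR2-/- NS and 50, 58 and 82 in TNFR2-/- St. NS and St libraries overlapped in both genotypes. Fitted changes were 0.16 ± 0.23 in log2 in each genotype (limma adjusted p = 0.74 in WT and 0.66 in TNFR2-/-). An antisense gene, *Dhx58os*, overlaps its exons and had at most 3 read pairs in any library.

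*Mavs* (ENSMUSG00000037523, chromosome 2, 131234063 to 131248025, plus strand), the adaptor of both RNA helicases, was the only gene of the 10 that was lower after stimulation in all 6 cultures. Its NS libraries had 595, 457 and 610 read pairs in WT and 773, 669 and 1091 in TNFR2-/-. The St libraries of the same cultures had 499, 443 and 436, and 573, 552 and 700. In FPKM, which corrects for depth, WT St (7.23 to 8.28) lay below WT NS (8.49 to 10.2) without overlap, although the read pairs overlapped. The TNFR2-/- groups overlapped. The log2 changes of -0.30 ± 0.17 and -0.40 ± 0.17 did not pass the test (limma adjusted p = 0.30 and 0.11). With cultures as a replicate block the adjusted p was 0.028 in WT and 0.0064 in TNFR2-/- (ranges over the alternatives 0.022 to 0.51 and 0.0043 to 0.31), at changes still under 1.5-fold.

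**Figure D2:**
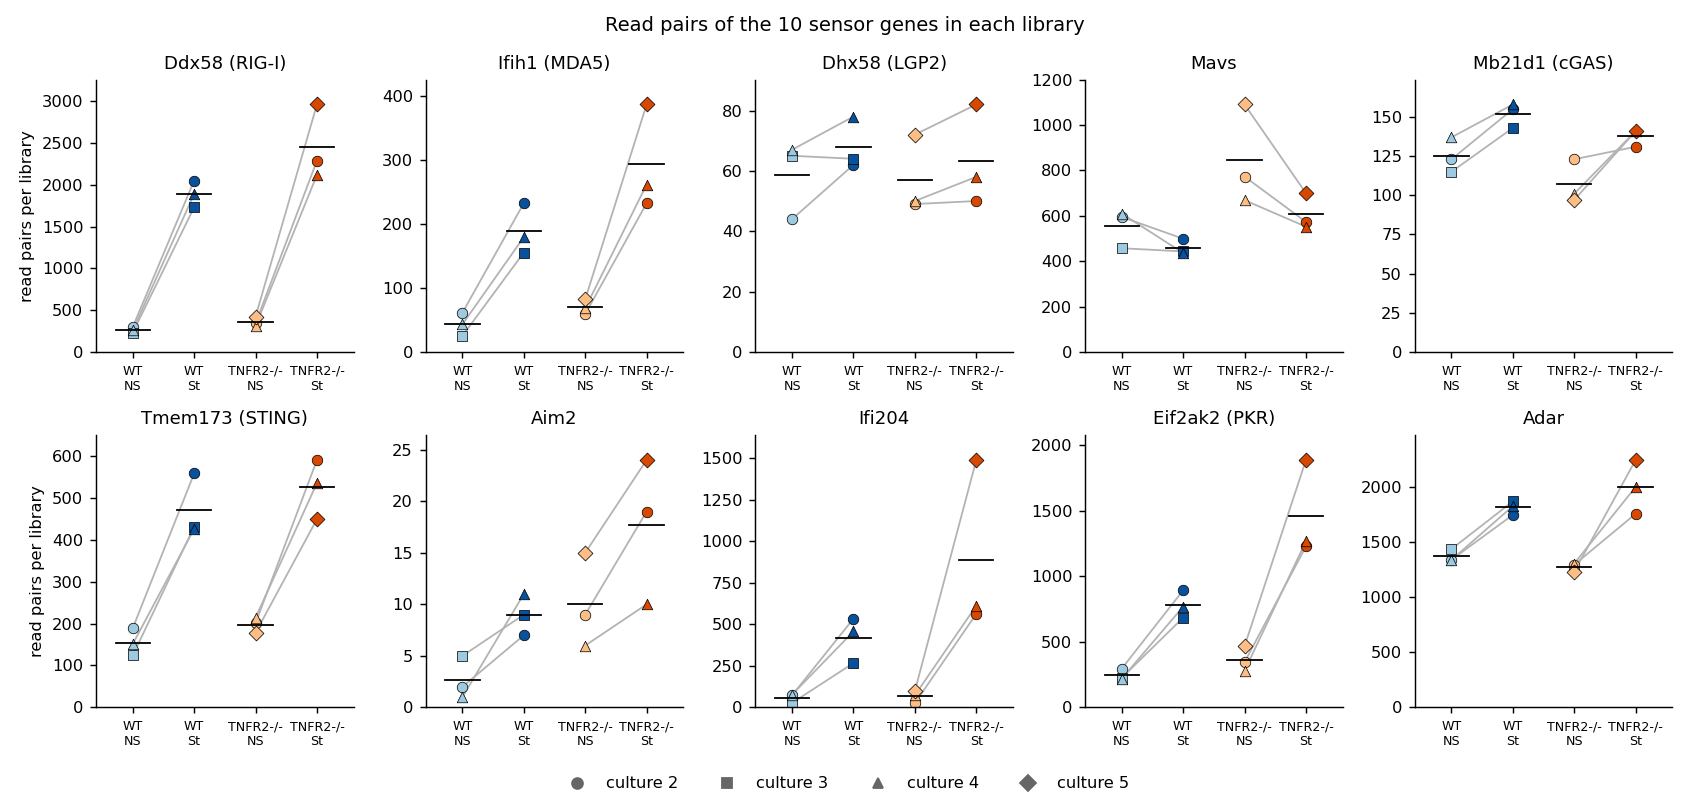
Read pairs of each of the 10 genes in every library (axes from 0), with a symbol per culture, a gray line joining the NS and St libraries of 1 culture and a black bar at the mean of the 3 libraries. Lines climb in every culture for all genes but *Dhx58* and *Mavs*, and descend in every culture for *Mavs*.

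Among the DNA sensors, the enzyme changed little and its partner STING rose. *Mb21d1* (cGAS; named *Cgas* in GENCODE, ENSMUSG00000032344, chromosome 9, 78430526 to 78443237, minus strand) had 123, 115 and 137 read pairs in WT NS and 155, 143 and 158 in WT St. In TNFR2-/- it had 123, 101 and 97 before and 131, 141 and 141 after stimulation. St libraries were above NS libraries in both genotypes, but by a small amount. The log2 change was 0.22 ± 0.10 in WT (limma adjusted p = 0.19). In TNFR2-/- it was 0.37 ± 0.10 (adjusted p = 0.019), below 1.5-fold.

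*Tmem173* (STING; ENSMUSG00000024349) had 189, 124 and 151 read pairs in WT NS and 558, 431 and 426 in WT St. The TNFR2-/- libraries had 201, 214 and 178 before and 590, 535 and 449 after. No St library was near an NS library. The rise was 2.64-fold in WT (log2 1.40 ± 0.14, limma adjusted p = 5.6e-05) and 2.47-fold in TNFR2-/- (log2 1.30 ± 0.14, adjusted p = 7.3e-05). In FPKM it went from 2.63 ± 0.433 to 7.77 ± 1.23 in WT and from 3.24 ± 0.304 to 8.75 ± 0.993 in TNFR2-/-.

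*Ifi204* (ENSMUSG00000073489, chromosome 1, 173747293 to 173766943, minus strand) is a mouse relative of human IFI16 that binds DNA. The 3 WT cultures went from 73, 27 and 77 to 534, 267 and 457 read pairs. The TNFR2-/- cultures went from 26, 73 and 99 to 563, 612 and 1488. All St libraries were above all NS libraries, and TNFR2-/- culture 5 lay far above the others. The log2 rise was 2.07 ± 0.40 in WT (limma adjusted p = 0.0048) and 2.96 ± 0.40 in TNFR2-/- (adjusted p = 0.00035). NS values were again near the pseudocount, and the ratio of mean FPKM was 6.97 in WT and 13.9 in TNFR2-/-. Of the 3462 sequences of 100 bases in its transcripts, 10.7% also occur in transcripts of *Ifi211*, *Mndal* or *Ifi207*, so some reads may belong to these relatives.

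*Aim2* (ENSMUSG00000037860, chromosome 1, 173350879 to 173466040, plus strand), which nucleates an inflammasome on DNA, was close to the limit of detection. It had 2, 5 and 1 read pairs in WT NS, 7, 9 and 11 in WT St, 9, 6 and 15 in TNFR2-/- NS and 19, 10 and 24 in TNFR2-/- St. WT St libraries were above WT NS libraries, and all 3 TNFR2-/- NS libraries were above those of WT NS. Its FPKM were too low to be tested. It was higher after stimulation in 3 of 3 cultures of each genotype. With voom on the recovered read pairs, added after the data were seen, the log2 change was 1.79 in WT (adjusted p = 0.063) and 0.94 in TNFR2-/- (adjusted p = 0.17). Neither change passed the test at this depth. In the fit without a filter the adjusted p was 0.43 and 0.21.

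PKR, which acts on translation rather than through MAVS, was induced in both genotypes. *Eif2ak2* (ENSMUSG00000024079, chromosome 17, 78852564 to 78882573, minus strand) had 296, 226 and 219 read pairs in WT NS and 894, 685 and 769 in WT St. It had 345, 280 and 467 in TNFR2-/- NS and 1229, 1268 and 1888 in TNFR2-/- St. The NS and St libraries were well apart in both genotypes. The rise was 2.99-fold in WT (log2 1.58 ± 0.22, limma adjusted p = 0.00057) and 4.03-fold in TNFR2-/- (log2 2.01 ± 0.22, adjusted p = 7.6e-05). In FPKM, *Eif2ak2* went from 14.7 ± 2.20 to 44.8 ± 5.98 in WT and from 20.7 ± 5.36 to 85.3 ± 24.2 in TNFR2-/-.

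*Adar* (ENSMUSG00000027951, chromosome 3, 89715022 to 89753446, plus strand) had the most read pairs of the 10 genes before stimulation, with 1342, 1439 and 1341 in WT NS and 1297, 1308 and 1234 in TNFR2-/- NS. After stimulation it had 1750, 1873 and 1830 in WT and 1760, 2004 and 2249 in TNFR2-/-. The St libraries were above the NS libraries in both genotypes. In TNFR2-/- cells *Adar* rose by 0.65 ± 0.11 in log2 (limma adjusted p = 0.0013). The WT change of 0.34 ± 0.11 had an adjusted p of 0.056, or 0.037 with cultures as a replicate block (range over the alternatives 0.0052 to 0.17), and was under 1.5-fold. Without TNFR2-/- St culture 5 the TNFR2-/- change was 0.54, under 1.5-fold, at an adjusted p of 0.0035 (range over the alternatives 0.00014 to 0.018). Its 3' neighbor *Chrnb2* overlaps it on the opposite strand with 48 to 110 read pairs a library, and 11.8% of the 100-base sequences of *Adar* transcripts are shared with it.

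**Figure D3:**
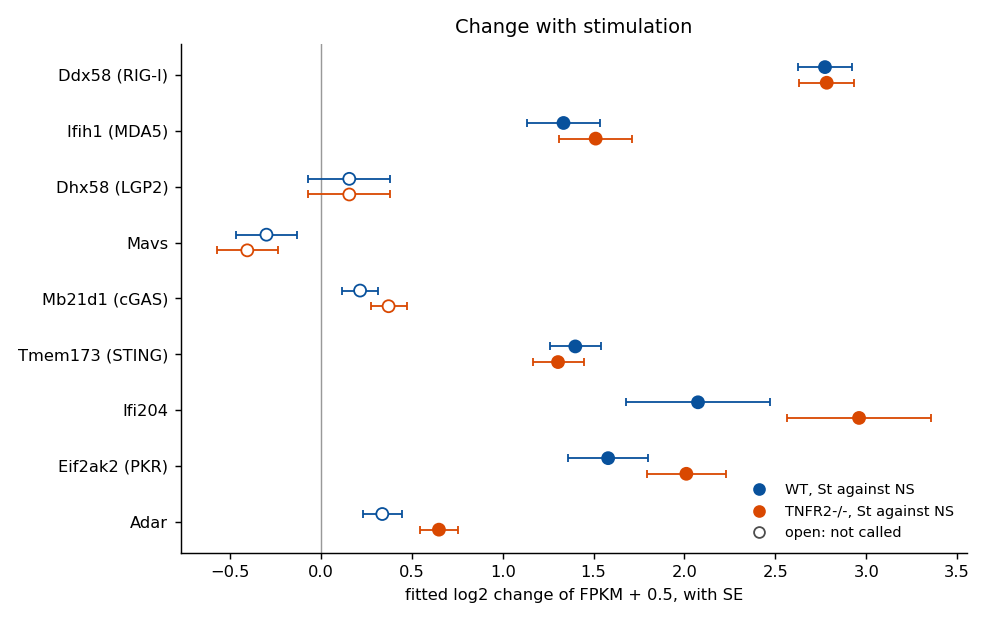
Fitted log2 change with stimulation (St against NS) of the 9 genes tested, with its SE, in WT and TNFR2-/- cells, where filled points were called and open ones were not. *Ddx58* is farthest right in WT at 2.77, *Mavs* lies left of 0 in both genotypes, and *Adar* is filled in TNFR2-/- alone. With voom on recovered read pairs the WT rises of *Ddx58* and *Ifi204* were 2.86 and 2.89.

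The difference between genotypes in the response itself was tested as an interaction. No gene of the 9 was called, none had an unadjusted p under 0.05 in limma against 7.95% of all genes tested, and adjusted p-values were at least 0.645. With voom on recovered read pairs 1 of the 9 had an unadjusted p under 0.05 and none was called. The largest fitted value was that of *Ifi204*, at 0.89 ± 0.56 in log2 (TNFR2-/- change minus WT change, adjusted p = 0.76). That of *Ddx58* was 0.01 ± 0.21. Over all genes tested 0.00553% were called up and 0.0% down. The fit above does not use the pairing of NS and St libraries by culture. With cultures as a replicate block the limma adjusted p of *Ifi204* was 0.14 (range over the alternatives 0.14 to 0.94). Adjusted p-values over the alternatives were 0.14 to 0.94 for *Eif2ak2* and 0.25 to 0.90 for *Adar*, and none was called. The call of *Adar* in TNFR2-/- and not in WT is thus not a shown difference between genotypes (interaction 0.31 ± 0.15, adjusted p = 0.64).

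The genotypes were then compared without stimulation. None of the 9 genes was called by limma, 3 had an unadjusted p under 0.05 against 30.2% of all genes tested, and voom on recovered read pairs also called none. Of all genes tested 1.62% were called up in TNFR2-/- NS and 1.28% down. *Mavs* had 9.51 ± 0.900 FPKM in WT NS and 13.9 ± 3.59 in TNFR2-/- NS (log2 0.50 ± 0.17, limma adjusted p = 0.077). Leaving out TNFR2-/- NS culture 4 gave 0.65 and an adjusted p of 0.034 (range over the alternatives 0.034 to 0.23). *Ifih1* differed by 0.35 ± 0.20 (adjusted p = 0.27), *Ddx58* by 0.37 ± 0.15 (adjusted p = 0.12) and *Mb21d1* by -0.27 ± 0.10 (adjusted p = 0.099). Counting *Aim2*, 3 of the 10 genes were higher in FPKM in every TNFR2-/- NS library than in any of WT NS, and 2 were lower, at a background of 19.9% and 14.3% of all genes tested.

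Among stimulated cells *Eif2ak2* alone differed by the call rule. It was 0.89 ± 0.22 higher in log2 in TNFR2-/- St than in WT St (limma adjusted p = 0.045), against 1.18% of all genes called up and 0.614% down. The libraries of the groups did not overlap, with 685 to 894 read pairs in WT St and 1229 to 1888 in TNFR2-/- St. The call was lost in 13 of 27 alternatives, with adjusted p-values of 0.011 to 0.15 over them. Without TNFR2-/- St culture 5 the difference was 0.67 (adjusted p = 0.13), and without both libraries of that culture it was 0.67 (adjusted p = 0.063). Leaving out any single WT library, NS or St, or culture 2 of TNFR2-/-, NS or St, also moved it past the threshold, to adjusted p-values of 0.055 to 0.15.

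*Ifi204* had a larger difference in TNFR2-/- St against WT St, 0.93 ± 0.40 in log2, that did not pass the test (limma adjusted p = 0.17). *Ifih1* differed by 0.53 ± 0.20 (adjusted p = 0.13), *Mavs* by 0.40 ± 0.17 (adjusted p = 0.17) and *Ddx58* by 0.38 ± 0.15 (adjusted p = 0.14). Together with *Eif2ak2* these made 5 of 10 genes whose TNFR2-/- St libraries were all above those of WT St in FPKM, at a background of 15.4%. For *Ifih1* the nearest libraries of the 2 groups had 232 read pairs each. None had them all below, at a background of 17.3%. *Tmem173*, *Mb21d1*, *Dhx58* and *Adar* overlapped and differed by at most 0.17 in size.

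One culture weighed on these values. TNFR2-/- culture 5 was the highest TNFR2-/- NS library for 7 of the 10 genes and the highest TNFR2-/- St library for 9. The share of all genes tested that were highest in this culture is not given, so these counts may not be particular to the 10 genes. Culture 5 was also the culture with the highest level of astrocyte markers. The summed level of 8 astrocyte markers was 776 in its NS and 737 in its St library, 425 to 455 in the other TNFR2-/- libraries and 297 to 344 in WT. All 8 markers could be measured, none was near 0, and of them *Gja1* was called up in TNFR2-/- NS and *Slc1a2* and *Slc1a3* in TNFR2-/- St. The same culture had the lowest summed level of 8 mural and fibroblast markers, 46.9 in its NS and 33.0 in its St library, against 94.7 to 391 in the others. With stimulation no astrocyte marker was called in either genotype. Without both libraries of culture 5 the same 5 genes that rose in WT were still called with stimulation in TNFR2-/- cells, whereas *Adar* was not. The part of the astrocyte, mural and fibroblast markers in the genotype differences or in the response to stimulation was not tested.

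**Figure D4:**
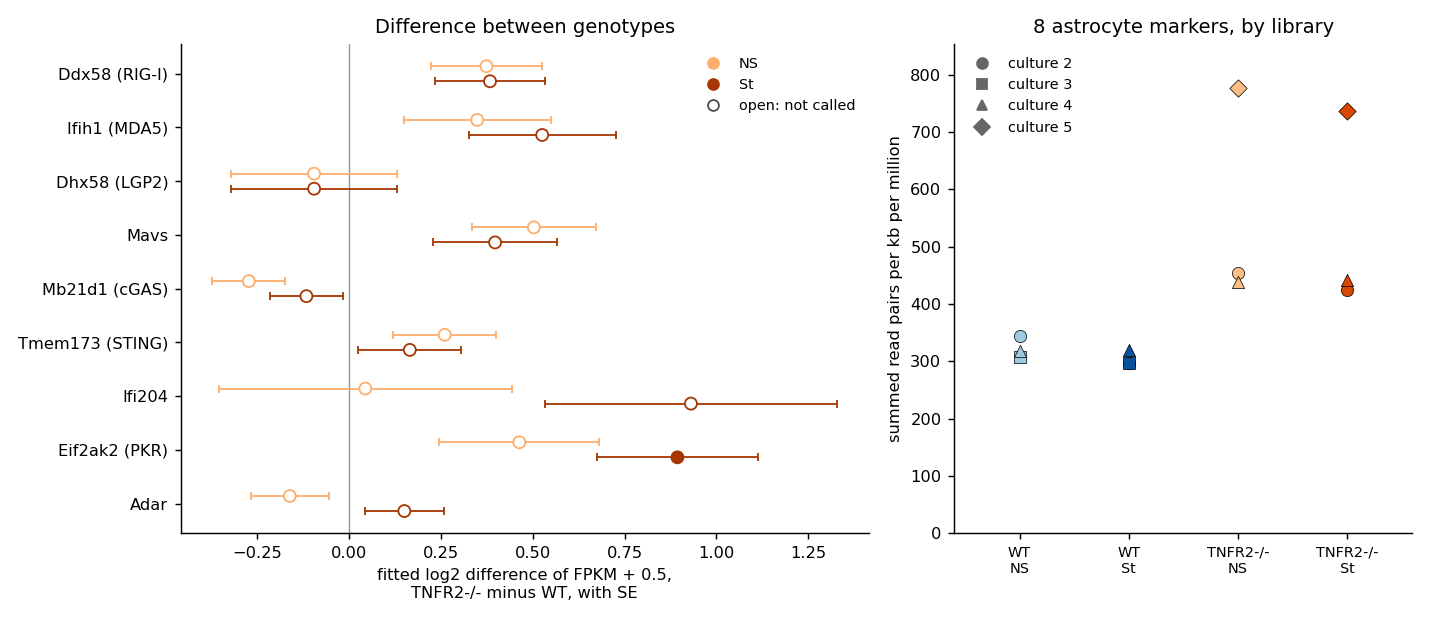
Left, fitted log2 difference between TNFR2-/- and WT libraries (TNFR2-/- minus WT) with its SE for the 9 genes tested, without (NS) and with (St) stimulation, filled where called. Right, summed level of 8 astrocyte markers in each library (axis from 0). *Eif2ak2* in stimulated cells is the single filled point, and culture 5 stands highest on the right at 776 and 737.

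Genes around the sensors were described from 8 lists of 105 genes, of which 87 were tested. In each genotype 26 of the 87 rose and 2 fell with stimulation. Of all genes tested, 4.58% rose and 2.95% fell in WT, and 5.41% and 4.68% in TNFR2-/-. These shares stand beside the counts of each list below. Falls were no more frequent in the lists than among all genes. Among 15 RNA sensors and cofactors 6 rose in each genotype, with a median log2 change of 0.06 in WT and 0.17 in TNFR2-/- over the list. *Trim25*, a ubiquitin ligase of RIG-I, had 120 to 175 read pairs before and 645 to 782 after stimulation in WT, a log2 rise of 2.10 ± 0.16 (limma adjusted p = 5.0e-06), and by 2.07 ± 0.16 in TNFR2-/-. *Rnf125*, a ligase that marks RIG-I for degradation, rose by 3.12 ± 0.48 in WT and 4.52 ± 0.48 in TNFR2-/-. *Rnf135*, another RIG-I ligase, rose by 1.51 ± 0.29 in WT and 1.08 ± 0.29 in TNFR2-/-. *Zc3hav1*, the gene of the zinc finger antiviral protein, rose by 1.35 ± 0.11 in WT and 1.52 ± 0.11 in TNFR2-/-. *Nlrx1*, a mitochondrial protein known to restrain MAVS, fell by 1.06 in WT and by 1.19 in TNFR2-/-. *Zcchc3* fell by 0.60 in TNFR2-/-, a call lost in 6 of 28 alternatives. *Ddx60*, a helicase linked to RIG-I, went from 3 to 6 read pairs to 47 to 79 with stimulation in WT, and from 9 to 13 to 87 to 187 in TNFR2-/-.

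Downstream of the sensors, 6 of 16 kinases, adaptors and transcription factors rose in each genotype and none fell, with list medians of 0.29 in WT and 0.45 in TNFR2-/-. *Irf7*, the transcription factor of the interferon-α genes, rose by 2.39 ± 0.21 in WT (limma adjusted p = 2.3e-05) and by 3.39 ± 0.21 in TNFR2-/- (adjusted p = 1.3e-06). *Irf5* rose by 2.24 ± 0.24 and 2.74 ± 0.24. *Nlrc5*, known chiefly as the activator of MHC class I genes, had 16 to 28 read pairs before and 9698 to 10344 after stimulation in WT, and 34 to 68 before and 8439 to 10019 after in TNFR2-/-. *Tbkbp1*, an adaptor of TBK1, rose by 0.70 ± 0.07 in WT and 0.73 ± 0.07 in TNFR2-/-, and *Traf2* by 0.66 ± 0.13 and 0.87 ± 0.13. Of 12 STING regulators *Trim56*, a ubiquitin ligase, rose in both genotypes (2.60 ± 0.22 and 3.07 ± 0.22), and *Enpp1*, which degrades the product of cGAS, fell by 0.64 in WT, a call lost in 7 alternatives.

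The relatives of *Aim2* and *Ifi204* rose in part. Of 8 tested Aim2-like receptors 4 rose in each genotype, with list medians of 1.76 in WT and 2.52 in TNFR2-/-. *Ifi203* went from 10 to 12 read pairs to 1196 to 1542 with stimulation in WT, and from 10 to 14 to 2368 to 5936 in TNFR2-/-. *Mndal* had at most 2 in WT NS and 115 to 127 in WT St, and at most 6 and 164 to 318 in TNFR2-/-. *Ifi205* had 6 to 20 read pairs before and 218 to 403 after stimulation in WT, and 10 to 30 and 479 to 698 in TNFR2-/-. Its fitted log2 rises of 2.18 ± 0.20 and 3.02 ± 0.20 reached 4.48 and 5.35 among the alternatives. *Pyhin1* had 24 to 55 read pairs before and 236 to 383 after stimulation in WT, and 49 to 101 and 538 to 937 in TNFR2-/-, for fitted rises of 2.23 ± 0.26 and 2.85 ± 0.26. These genes lie close in sequence, and reads may be split among them.

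Of 7 tested inflammasome partners 4 rose in each genotype. *Casp4*, which encodes mouse caspase-11, had at most 4 read pairs before and 429 to 585 after stimulation in WT, and 2 to 6 before and 675 to 885 after in TNFR2-/-. *Casp1* rose by 1.54 ± 0.22 in WT (limma adjusted p = 0.00080) and 2.01 ± 0.22 in TNFR2-/-. *Gsdmd*, the pore protein cut by these caspases, went from 8 to 13 read pairs to 40 to 67 with stimulation in WT, and from 15 to 17 to 39 to 44 in TNFR2-/-. *Panx1* rose by 0.61 ± 0.11 and 0.65 ± 0.11. Among nucleases and dNTP control, 3 of 11 rose in each genotype, among them *Samhd1* (1.35 ± 0.16 and 1.67 ± 0.16) and *Pnpt1* (0.86 ± 0.07 and 0.94 ± 0.07). *Trex1* was not analysed here. None of 14 PKR and ADAR partners was called with stimulation in either genotype, at backgrounds of 4.58% up and 2.95% down in WT and 5.41% and 4.68% in TNFR2-/-, with list medians of -0.09 in WT and -0.00 in TNFR2-/-.

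Type I and type III interferon transcripts were almost undetected at 3 h. Of 9 interferon genes in the tables, 6 were listed at 0 in all libraries and 8 were above 0 in at most 2 libraries. *Ifnb1* had 0 read pairs in the 6 NS libraries, which allows up to 3, with 5 to 9 in WT St and 7 to 13 in TNFR2-/- St. The receptor chains *Ifnar2* and *Ifngr2* rose, by 1.40 ± 0.07 and 1.18 ± 0.07 in WT (limma adjusted p = 2.1e-07 and 9.6e-07) and by 1.11 ± 0.07 and 1.08 ± 0.07 in TNFR2-/-.

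**Figure D5:**
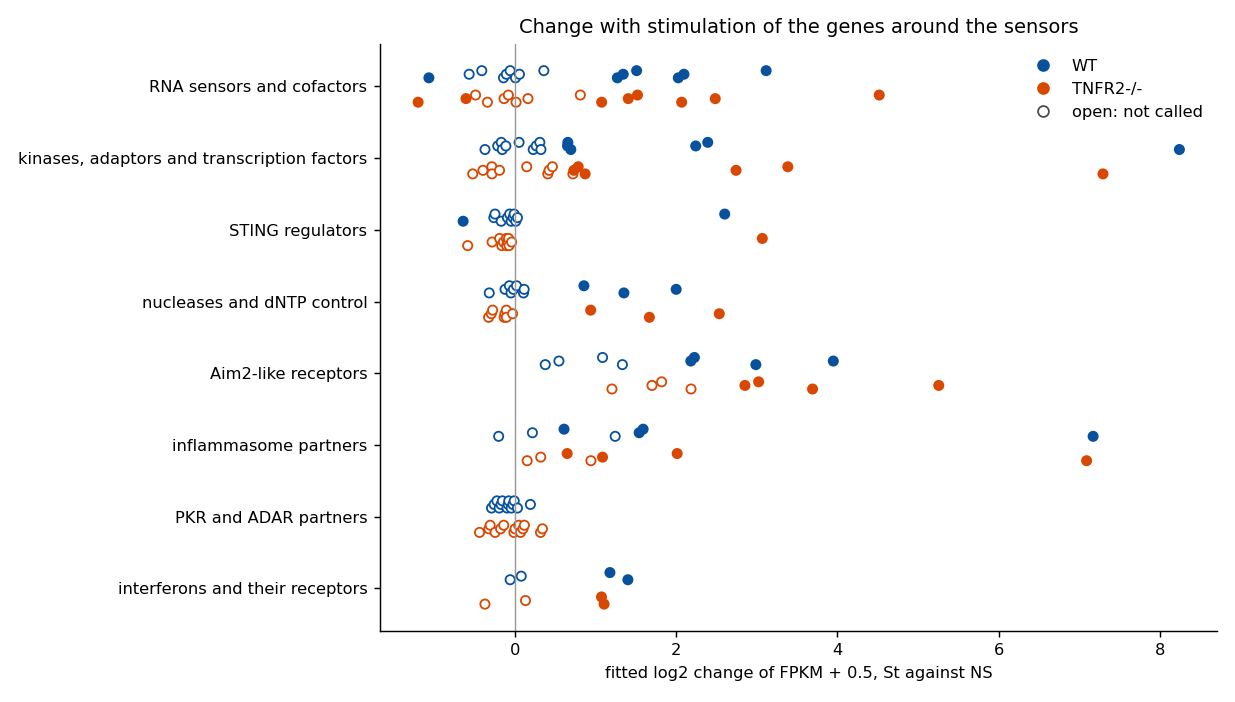
Fitted log2 change with stimulation (St against NS) of each tested gene in the 8 lists around the sensors, in WT and TNFR2-/- cells, with called genes filled. Rises are spread over most lists, with *Nlrc5* and *Casp4* farthest right, while all 14 PKR and ADAR partners lie near 0 and are open.

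Between genotypes, 1.18% of all genes tested were called up in TNFR2-/- St against WT St and 0.614% down. Of the 87 listed genes 7 were called up and none down. They were *Rnf125* (2.06 ± 0.48, limma adjusted p = 0.040), *Ifi203* (1.32 ± 0.27, adjusted p = 0.030), *Pyhin1* (1.07 ± 0.26, adjusted p = 0.045), *Casp1* (1.06 ± 0.22, adjusted p = 0.032), *Ifi205* (0.90 ± 0.20, adjusted p = 0.036), *Irf7* (0.87 ± 0.21, adjusted p = 0.046) and *Traf2* (0.63 ± 0.13, adjusted p = 0.030). Each of these calls was lost in 5 to 15 alternatives, and without both libraries of culture 5 all but that of *Ifi203* were lost. Without stimulation *Rnf135* (1.25 ± 0.29) and *Nlrc5* (0.85 ± 0.19) were called up and *Eif2ak3*, the eIF2α kinase of the unfolded protein response, down (-0.89 ± 0.21), each lost in 7 alternatives. These 2 up and 1 down of the 87 were near the share of all genes tested, 1.62% up and 1.28% down. No gene of the lists was called in the interaction.

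The genes whose pattern over the 12 libraries was most like that of each sensor were found by Pearson's r of log2(FPKM + 0.5) among 13554 genes, as a description. The libraries share their 4 groups and their cultures, so a high r can restate a common difference with stimulation, genotype or culture. Which of these lies behind each r was not tested. For *Ddx58* they were *Dtx3l*, *Herc6* and *Rtp4* (r from 0.998 to 0.999), for *Ifih1* *Smim3*, *Pyhin1* and *Myd88* (0.991 to 0.992), and for *Eif2ak2* *Rnf125*, *Trim12c* and *Timp3* (0.988 to 0.994). For *Tmem173* they were *Bcl11a*, *Zfp36l1* and *Cd14* (0.988), and for *Ifi204* *P2ry6*, *Susd6* and *Prph* (0.984 to 0.985). *Adar* was most like *Ep400*, *Arhgap28* and *Zcchc6* (0.962 to 0.976), and *Mavs* most like *Ap3s2*, *Hexdc* and *Pip4k2c* (0.978 to 0.980). The values were lower for *Mb21d1* (*Baz2b*, *Lpgat1* and *Srpr*, 0.924 to 0.940), for *Dhx58* (*Hsph1*, *Tpst1* and *Jarid2*, 0.904 to 0.913) and for *Aim2* (*Riok2*, *Zfp697* and *Ibtk*, 0.942 to 0.955).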

How the data were processed

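RNA of 12 OPC libraries was measured. According to the methods, adapters were removed with Trim Galore and read pairs were mapped to GRCm38 (Ensembl 81) and counted per gene by STAR. EdgeR served for the study's own calls. The authors deposited FPKM, in 1 table for NS and 1 for St libraries. A BGISeq-500 is named in the methods and Illumina protocols in the labels. Of 45792 entries, 229 shared a symbol and were left out.

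Whole read pairs were recovered from the deposited FPKM for 26635 of 26636 genes (tolerance 0.02 read pairs). The length implied by the FPKM was 0.0641 to 2.86 times the annotated exon length of the 10 genes, so levels were compared between genes per kb of GENCODE M21 exons. The pseudocount and the FPKM thresholds of the test act on the deposited values, so through this length they bear unevenly on genes. Precision rests on totals of 26886878 to 30335265 read pairs, and limits given for counts of 0 cover counting error only.

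The main test was limma 3.58.1 (R 4.3.3) with a mean-variance trend. Its input was log2(FPKM + 0.5) of all 12 libraries, modelled by a mean for each of the 4 groups, for the 18081 genes whose average reached 0.1 FPKM. Benjamini-Hochberg adjustment ran over those genes. A call needed an adjusted p of at most 0.05, a 1.5-fold change and an average of 1 FPKM. For 3 libraries against 3, the smallest p of an exact permutation test is 0.1, so none was run. The study's legends for figures with RNAseq values name 3 independent experiments. The labels do not say that cultures came from separate animals. The p-values therefore measure the spread between these libraries, which may be technical in part.

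Within a genotype, NS and St libraries of the same number deviated together (r = 0.34 to 0.65 over 6 pairs and 13554 genes), unlike those of other numbers (-0.45 to 0.09 over 12 pairs). From this, and not from the labels, the number was taken to pair the NS and St libraries of a culture. Across genotypes the same number gave r = -0.08 to 0.20 and pairs nothing.

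The test was tried on simulated counts for TNFR2-/- St against WT St. Among 17884 genes it called 86 of 100 simulated 2-fold changes, 96 of 100 simulated 4-fold changes and 7 unchanged genes. Counts were drawn independently for each library around a common mean per gene, with no effect of culture and no outlying culture. These rates therefore need not hold for the real libraries. Summaries and plots used Python 3.11.15, numpy 2.4.6, pandas 2.3.3 and matplotlib 3.10.9.

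The 10 genes, the lists and the tests were chosen with earlier results of these data known. Named from each list were called genes whose groups did not overlap, at most the 4 with the largest rise and the 2 with the largest fall in a comparison, and for each sensor the 3 genes most like it among those with a mean of at least 1 FPKM. *Tubb3*, *Snap25* and the called astrocyte, OPC, endothelial, mural and fibroblast markers were named after their values were seen. One gene that this rule names is not reported here. Alternatives were other pseudocounts, low-value filters and scalings, a fit on the 6 libraries compared, no trend, library weights, adjusted p alone, replicate blocks, each library left out and voom on recovered read pairs. A floor in read pairs, voom on genes with at least 5 read pairs and leaving out TNFR2-/- culture 5 were added after the data were seen.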

Additional observations from a re-analysis of the deposited data

How the results depend on the processing

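The number of the 10 genes called with stimulation in WT was 5 in all 28 alternatives. In TNFR2-/- it was 6, with 5 to 6 when a library was left out and 5 to 7 otherwise, where *Adar* was lost with library weights (0.57), without TNFR2-/- St culture 5 (0.54) and without both libraries of that culture (0.51), and *Mb21d1* was gained with the adjusted p alone. For TNFR2-/- NS against WT NS the count was 0, with 0 to 1 when a library was left out. For TNFR2-/- St against WT St it was 1, with 0 to 1 when a library was left out, and it was 0 without a filter on low values, with the 6 libraries compared, without a trend and without both libraries of culture 5, where the adjusted p of *Eif2ak2* was 0.077, 0.087, 0.055 and 0.063 (range over its alternatives 0.011 to 0.15). The interaction count was 0 throughout. The replicate block within genotype left the counts at 5, 6 and 0, and a block by number across genotypes at 5, 6, 0, 1 and 0. The block within genotype moved the adjusted p of *Mavs* and of WT *Adar* as given above and changed no call of the 10 genes.

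Values that crossed 0 were uncalled, and the cause was not tested. The log2 difference of *Ifi204* between NS genotypes was 0.04, and -0.32 with library weights, -0.52 with the replicate block by number, -0.030 with voom, -0.014 with voom on genes of at least 5 read pairs, -0.16 without culture 5 and -0.17 to 0.32 when a library was left out. Leaving out a library gave *Dhx58* -0.043 to 0.28 for WT stimulation, -0.050 to 0.32 for TNFR2-/- stimulation, -0.29 to 0.031 between NS genotypes and -0.30 to 0.054 between St genotypes. For the interaction it gave -0.16 to 0.13 for *Ddx58*, -0.029 to 0.31 for *Ifih1*, -0.21 to 0.20 for *Dhx58*, -0.25 to 0.086 for *Mavs* and -0.20 to 0.024 for *Tmem173*. The interaction of *Ddx58* was -0.048 with library weights and -0.035 without culture 5, that of *Dhx58* -0.079 and -0.045, and -0.0021 with a pseudocount of 0.1, and that of *Aim2*, -0.85 with voom, was 0.014 without a filter. For *Tnfrsf1b* in TNFR2-/- stimulation the range was -0.079 to 0.22, and -0.062 without culture 5. Depth limits *Aim2*, with at most 24 read pairs in a library, and the low values of *Ifih1* and *Ifi204*, whose changes the pseudocount lowers.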
